A study of Homo sapiens with 9 samples.

Results

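The TAM receptors TYRO3, AXL and MERTK and their ligands GAS6 and PROS1 were followed across 9 Affymetrix HG-U133 Plus 2.0 arrays. The members were all probe sets that the array's annotation gives to 1 gene only, that gene being 1 of these 5. Of the 19775 genes with such a probe set the family makes 5, with 10 probe sets of the 54613 tested: 2 for AXL, 2 for TYRO3, 3 for MERTK, 2 for GAS6 and 1 for PROS1. The cells were MDA-MB-231, an established line from a triple-negative breast cancer, and the samples were 3 groups of 3 wells labelled as biological replicates. All wells were reverse transfected with lipid and a small RNA at 10 nM and taken 48 h later, and the groups differed in that RNA: AllStar (a negative control), Qmimic or Dmimic. The title of the series calls AXL a target of the microRNA miR-34a, and the labels state neither what Q and D stand for nor the sequence of either mimic. The labels do not say whether the wells came from separately grown cultures, so a p-value measures the spread between these wells only.

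TAM receptors are receptor tyrosine kinases of the cell surface. Their ligands are vitamin K-dependent proteins that bind phosphatidylserine on dying cells at one end and the receptor at the other, which links the receptors to the clearance of dying cells, to the damping of innate immune signalling and, for AXL in breast cancer cells, to migration and invasion. A microRNA lowers its targets mostly through a match between its seed and the target mRNA, so a direct target is looked for among transcripts that are lower when the microRNA is added.

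The mature miR-34a and 2 microRNAs with the same seed, from RefSeq's annotation of GRCh38.p14, are shown because the title sets miR-34a beside AXL. They are examples of this seed family, to which hsa-miR-34c-5p also belongs. Capitals mark the seed, bases 2 to 8. The bases outside the seed separate miR-34a from miR-449a and miR-449b.
hsa-miR-34a-5p: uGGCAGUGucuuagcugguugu
hsa-miR-449a: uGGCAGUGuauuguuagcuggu
hsa-miR-449b-5p: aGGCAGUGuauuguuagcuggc
The letters that pair with this seed in a target mRNA are CACUGCC.

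Values are the authors' log2 signals, so 1 unit is a doubling, and calls needed a limma adjusted p (Benjamini-Hochberg over all 54613 probe sets) under 0.05 with a difference of 1.5-fold or more, 0.585 in log2. AllStar replicate 3 stood apart: it correlated with the other arrays at 0.974 to 0.981, against 0.993 to 0.998 among the other 8, and its values had an interquartile range of 2.99 against 3.41 to 3.53. The comparisons of each mimic with AllStar are therefore given with and without it. The cells carried the markers of their line, with all 6 (VIM, CD44, CAV1, MSN, LGALS1 and CD59) at a mean log2 level over 8. Of 6 luminal and hormone receptor markers, CDH1 and PGR lay under 6 (3.67 and 4.05), ESR1 and EPCAM between 6 and 8 (6.90 and 7.95), and ERBB2 and KRT8 over 8 (8.59 and 10.67). All 5 leukocyte markers measured lay under 6, PTPRC at 3.91. Of 4 fibroblast markers 2 lay under 6, and of 4 endothelial markers 2. The highest of these lists were COL1A1 at 7.27 and PECAM1 at 6.33, and none was over 8.

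AXL was the only one of the 5 genes whose level was lower by about 1.5-fold or more with both mimics. AXL encodes the TAM receptor that GAS6 binds most strongly. On probe set 202686_s_at the AllStar arrays read 12.27, 12.31 and 12.76, the Qmimic arrays 11.54, 11.85 and 11.83, and the Dmimic arrays 11.77, 11.83 and 11.55. All 6 mimic arrays lay below all 3 AllStar arrays, and the highest reading was that of AllStar replicate 3. On probe set 202685_s_at the AllStar arrays read 8.996, 9.02 and 8.83, the Qmimic arrays 7.81, 8.31 and 8.36, and the Dmimic arrays 8.16, 8.38 and 7.53. The groups were again apart, here with AllStar replicate 3 as the lowest control. In order of level, AllStar was above Qmimic and Dmimic on both probe sets, and the levels of the mimics did not differ beyond their spread.

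With all 9 arrays the AXL differences were large and did not pass the adjusted test. On 202686_s_at Qmimic differed from AllStar by -0.71 (95% interval -1.04 to -0.38, limma adjusted p = 0.162) and Dmimic by -0.73 (-1.06 to -0.40, adjusted p = 0.115). On 202685_s_at the differences were -0.79 (-1.26 to -0.32, adjusted p = 0.193) and -0.93 (-1.40 to -0.46, adjusted p = 0.136). The probe sets of like level, within 0.5 of AXL's AllStar level, had a median difference of 0.064 and 0.066 at the first probe set and 0.157 and 0.145 at the second. AXL thus lay to the other side of probe sets of its brightness. So did TYRO3 211432_s_at, with -0.13 for Qmimic and -0.16 for Dmimic against medians of 0.139 and 0.115. MERTK 206028_s_at did too, by less, with -0.013 and -0.033 against medians of 0.156 and 0.136. The other probe sets of TYRO3 and MERTK did not do so with both mimics. For AXL, both mimics together gave -0.72 on the first probe set and -0.86 on the second (adjusted p = 0.0605 and 0.0841). An exact permutation test, two-sided, of the 6 mimic against the 3 AllStar arrays gave p = 0.0119 on each probe set, the smallest value these numbers allow. AXL is the gene of the series title, so this p is no independent support.

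Leaving out AllStar replicate 3, the AXL differences remained negative, and the probe sets separated in size. On 202686_s_at the limma value for Qmimic became -0.55 (adjusted p = 0.0394) and that for Dmimic -0.57 (adjusted p = 0.0317), both under 1.5-fold. On 202685_s_at Qmimic gave -0.85 (adjusted p = 0.0847) and Dmimic -0.99 (adjusted p = 0.0511). Taking both mimics together, 202685_s_at differed by -0.92 (1.89-fold, adjusted p = 0.0404) and was the only one of the 10 probe sets that passed both thresholds in any of the comparisons with or without that array.

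**Figure D1:**
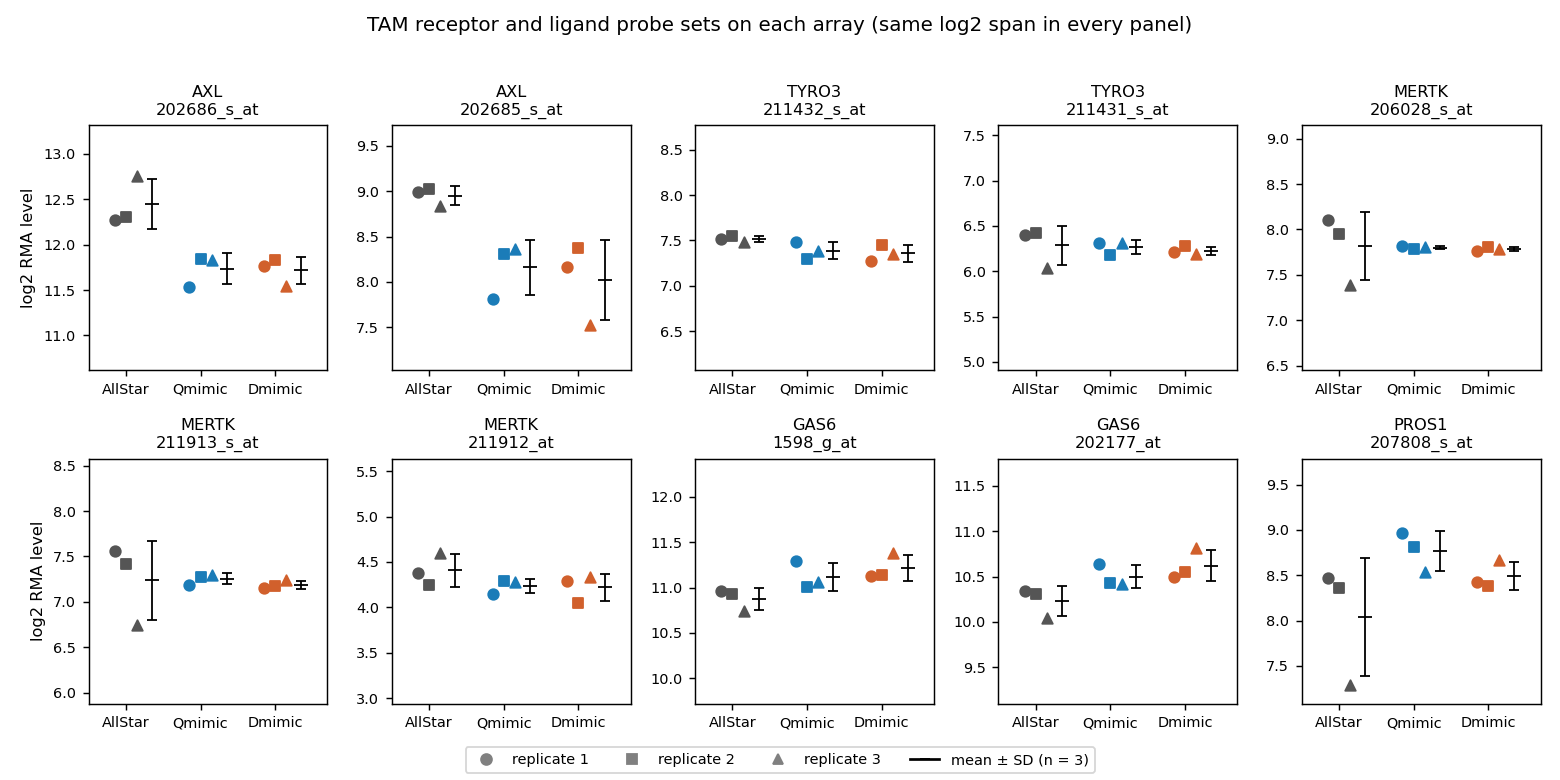
Log2 RMA level (vertical axis) of each of the 10 probe sets on the 9 arrays, by group (horizontal axis), with a symbol for the replicate number and the mean ± SD of 3 arrays beside it; every panel spans the same number of log2 units. AXL is lower on all 6 mimic arrays, and AllStar replicate 3 lies low for PROS1 (7.29), MERTK 206028_s_at (7.39) and GAS6.

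TYRO3, the TAM receptor best known from the nervous system, differed little between the groups. On 211432_s_at the AllStar arrays read 7.52, 7.55 and 7.48, the Qmimic arrays 7.48, 7.29 and 7.38, and the Dmimic arrays 7.27, 7.45 and 7.35. The mimic arrays lay below the controls, with Qmimic replicate 1 just under AllStar replicate 3. The differences from AllStar were -0.13 with Qmimic (95% interval -0.33 to 0.064, limma adjusted p = 0.418) and -0.16 with Dmimic (-0.36 to 0.036, adjusted p = 0.458), and without AllStar replicate 3 they were -0.15 and -0.18 (adjusted p = 0.361 and 0.293). The second probe set, 211431_s_at, averaged 6.28 ± 0.22 (SD, n = 3) in AllStar, 6.27 ± 0.079 in Qmimic and 6.23 ± 0.045 in Dmimic, and its groups overlapped. Its differences without AllStar replicate 3 were -0.14 (adjusted p = 0.312) and -0.18 (adjusted p = 0.21), and its mimic arrays then lay below both controls. All of these intervals lie within a 1.5-fold change. The annotation also lists 2 probe sets for TYRO3P, a pseudogene close to TYRO3 in sequence, whose values ranged from 4.03 to 6.25, and whether its transcripts add to the TYRO3 signal was not tested.

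MERTK, the TAM receptor of phagocytes and retinal pigment epithelium that takes up dying cells and photoreceptor debris, read differently with and without AllStar replicate 3. On 206028_s_at the AllStar arrays read 8.10, 7.95 and 7.39, the Qmimic arrays 7.82, 7.79 and 7.80, and the Dmimic arrays 7.76, 7.80 and 7.78. The 6 mimic arrays sat within a narrow band between AllStar replicates 1 and 2 above and replicate 3 below. The same held on 211913_s_at, with 7.56, 7.41 and 6.74 for AllStar, 7.19, 7.28 and 7.30 for Qmimic, and 7.16, 7.17 and 7.24 for Dmimic. With all 9 arrays the differences on these probe sets ran from -0.051 to 0.017 (limma adjusted p from 0.898 to 0.966). When that array was left out, Qmimic gave -0.23 on both (adjusted p = 0.117 and 0.132) and Dmimic -0.25 and -0.30 (adjusted p = 0.0887 and 0.063), and no interval reached a 1.5-fold change. The third probe set, 211912_at, read low on all arrays (4.05 to 4.60), and its groups overlapped in both fits. Its differences were -0.17 with Qmimic and -0.19 with Dmimic on 9 arrays, and -0.075 and -0.090 without AllStar replicate 3 (limma adjusted p from 0.425 to 0.729).

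GAS6, the ligand of all 3 receptors, was higher on every mimic array than on every AllStar array. On 1598_g_at the AllStar arrays read 10.96, 10.93 and 10.74, the Qmimic arrays 11.30, 11.004 and 11.06, and the Dmimic arrays 11.12, 11.14 and 11.38. On 202177_at they read 10.34, 10.31 and 10.04, then 10.64, 10.43 and 10.41, then 10.49, 10.55 and 10.82. The probe sets followed each other closely: after each was centred on its own mean, they differed by a root mean square of 0.041 over the 9 arrays, against 0.246 for the pair of AXL probe sets. The differences with Qmimic were 0.25 (95% interval -0.010 to 0.50, limma adjusted p = 0.314) and 0.27 (-0.008 to 0.54, adjusted p = 0.312). With Dmimic they were 0.34 (0.083 to 0.59, adjusted p = 0.28) and 0.39 (0.12 to 0.66, adjusted p = 0.251). None was called, and each estimate lay under 1.5-fold.

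The GAS6 differences were smaller without AllStar replicate 3, the lowest control on both probe sets. They were then 0.18 and 0.17 for Qmimic (limma adjusted p = 0.406 and 0.43) and 0.27 and 0.29 for Dmimic (adjusted p = 0.213 and 0.179). Probe sets of like level had median differences of 0.114 to 0.135 with all 9 arrays and of 0.006 to 0.019 without AllStar replicate 3. GAS6 was thus above probe sets of its brightness in both cases, by an amount that the adjusted test did not call.

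PROS1, protein S, an anticoagulant of plasma that also binds TYRO3 and MERTK, had the widest control spread of the 10 probe sets. On 207808_s_at, its only probe set, the AllStar arrays read 8.47, 8.36 and 7.29, the Qmimic arrays 8.96, 8.81 and 8.53, and the Dmimic arrays 8.43, 8.38 and 8.67. Qmimic lay above all controls, while Dmimic overlapped them. The differences were 0.73 with Qmimic (95% interval 0.13 to 1.32, limma adjusted p = 0.261) and 0.45 with Dmimic (-0.14 to 1.04, adjusted p = 0.48). Leaving out AllStar replicate 3 gave 0.35 (0.074 to 0.63, adjusted p = 0.172) and 0.077 (-0.20 to 0.35, adjusted p = 0.828). Both values were thus smaller once AllStar replicate 3, the lowest PROS1 reading of all 9 arrays, was left out.

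**Figure D2:**
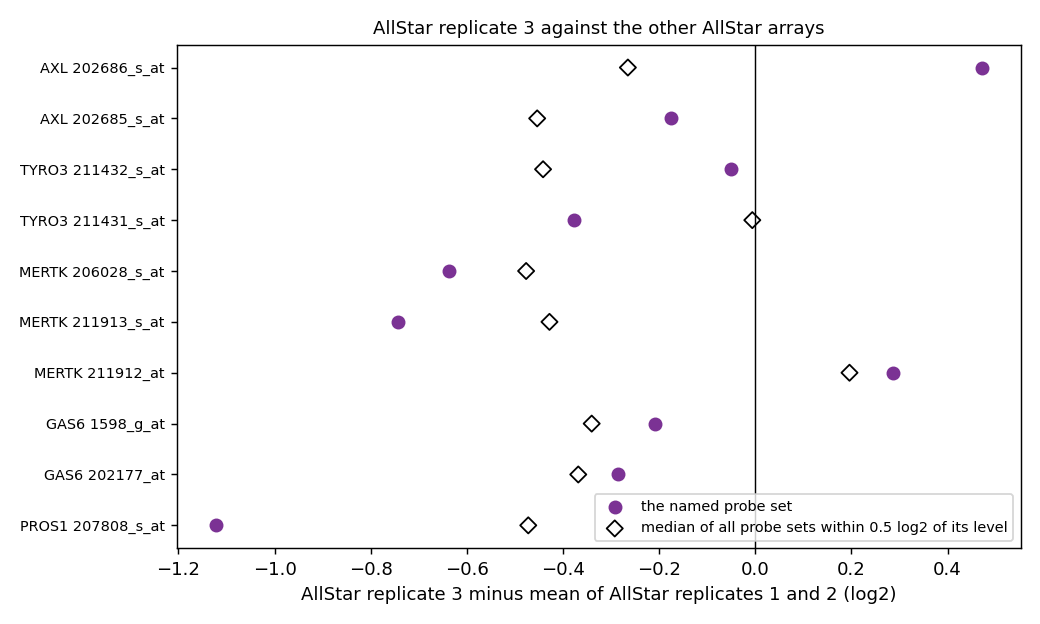
AllStar replicate 3 minus the mean of AllStar replicates 1 and 2 (horizontal axis, log2) for each of the 10 probe sets (filled circles), with the median of the same quantity over all probe sets within 0.5 log2 of its level (open diamonds). PROS1 lies at -1.12 against a median of -0.47, and AXL 202686_s_at at 0.47 against -0.27.

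AllStar replicate 3 bore on the members unequally. It lay 1.12 below the mean of the other 2 controls for PROS1, 0.74 and 0.64 below it for the brighter MERTK probe sets, and 0.21 and 0.28 below it for GAS6. For AXL it lay 0.47 above that mean on 202686_s_at and 0.17 below it on 202685_s_at. The median of the same quantity over probe sets of like level was negative for each of these, from -0.48 to -0.27. For TYRO3 the array differed from that mean by -0.050 on 211432_s_at, against a median of -0.44. On 211431_s_at it differed by -0.38, against a median of -0.0062. For MERTK 211912_at the difference was 0.29, against a median of 0.20. What part the array's quality has in each member's difference was not tested.

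Read as a family, no member passed the thresholds with Qmimic or Dmimic when all 9 arrays were used. In limma 0 of 10 were called with Qmimic, where 0% of all probe sets were, and 3 of 10 had an unadjusted p under 0.05, against 16.3% of all. With Dmimic 0 of 10 were called, against 0.00549% of all, and 4 of 10 had an unadjusted p under 0.05, against 12.8%. For the mean of both mimics 0 of 10 were called, against 0.0806%, and 5 of 10 had an unadjusted p under 0.05, against 19.2%. In the fit without AllStar replicate 3 the counts of calls were 0 with Qmimic (0.54% of all), 0 with Dmimic (0.864%) and 1 over both mimics (0.721%), and 5, 7 and 8 of the 10 had an unadjusted p under 0.05 (18.2%, 17.1% and 19.1% of all).

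AXL and GAS6 lay on opposite sides of the control arrays. With Qmimic 3 of the 10 probe sets lay above every AllStar array (14.1% of all probe sets did) and 3 below (10.8%), and with Dmimic 2 lay above (11.9%) and 3 below (7.04%). In the fit without AllStar replicate 3 the counts were 3 above (17.9%) and 6 below (20%) with Qmimic, and 2 above (17%) and 6 below (16.5%) with Dmimic. With all 9 arrays, 3 of the 10 probe sets lay below every AllStar array on all 6 mimic arrays, against 3.83% of all probe sets: both of AXL and 211432_s_at of TYRO3. Above every AllStar array on all 6 lay 2, both of GAS6, against 8.33% of all. On the 8 arrays left without AllStar replicate 3, 6 lay below (10.1% of all) and 2 above (10.4%), and the 6 were both probe sets of AXL, both of TYRO3 and the brighter pair of MERTK. The median difference over the 10 probe sets for both mimics was -0.030 with all arrays and -0.16 without AllStar replicate 3, while that of all 54613 was -0.031 and -0.0078. The sizes were unequal, since AXL alone reached 1.5-fold among the receptors. Probe sets of a gene share its transcripts, so these counts hold at most 5 separate genes.

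**Figure D3:**
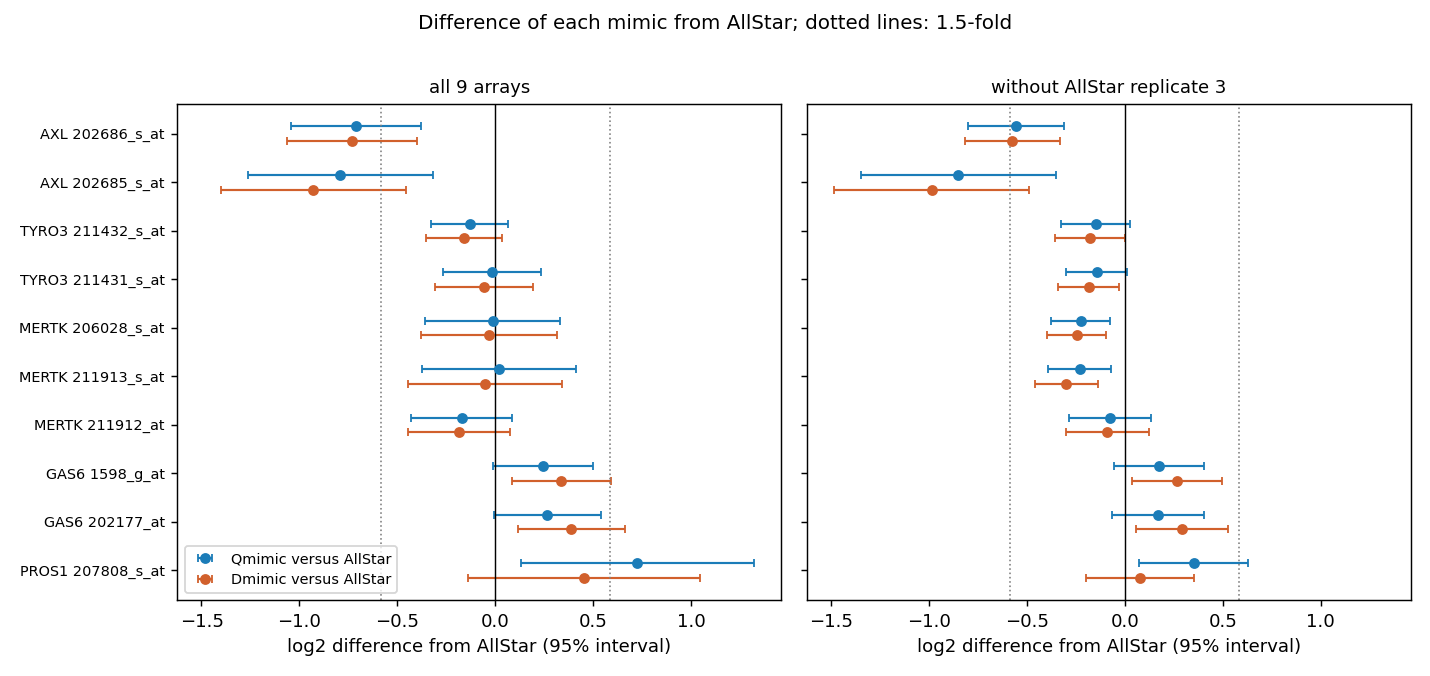
Log2 difference of Qmimic and of Dmimic from AllStar (horizontal axis) for each probe set, with the 95% interval from limma, for all 9 arrays (left) and without AllStar replicate 3 (right). The dotted lines mark 1.5-fold, and the AXL points lie at or beyond the lower line or close to it, from -0.55 to -0.99.

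The mimics were compared with each other directly. Of the 10 probe sets, limma called 0 with all 9 arrays, where 0% of all probe sets were called, and 0 had an unadjusted p under 0.05, against 2.41% of all. In the fit without AllStar replicate 3 it called 0 of 10 (0.0806% of all), and 1 of 10, PROS1, had an unadjusted p under 0.05 (11.1% of all). The groups of mimic arrays overlapped on each of the 10, while 16.1% of all probe sets had groups apart. AXL with Qmimic differed from AXL with Dmimic by 0.020 (95% interval -0.31 to 0.35) and 0.14 (-0.33 to 0.61). For GAS6 the differences were -0.093 (-0.35 to 0.16) and -0.12 (-0.40 to 0.15). The widest estimate was that of PROS1, 0.27 (-0.32 to 0.87), with an exact two-sided permutation p = 0.2 where 3 arrays against 3 allow no less than 0.1. With the control spread taken from 2 arrays, the interval for PROS1 was 0.027 to 0.52 (limma adjusted p = 0.405). With all 9 arrays the intervals of AXL 202685_s_at and PROS1 leave room for a 1.5-fold difference between the mimics. Those of AXL 202686_s_at and of every TYRO3, MERTK and GAS6 probe set do not. In the fit without AllStar replicate 3 the interval of AXL 202685_s_at was -0.31 to 0.58, and neither it nor that of PROS1 reached 1.5-fold.

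Within the mimic groups AXL, GAS6 and PROS1 were extreme on the same arrays. Qmimic replicate 1 and Dmimic replicate 3 held the lowest AXL reading of their group on both AXL probe sets and the highest GAS6 reading of their group on both GAS6 probe sets. PROS1 also read highest of its group on these arrays, at 8.96 and 8.67. The pair of arrays was picked from the readings of the members themselves. Among all probe sets, 14.7% had both of these arrays as the lowest of their group and 17.2% had both as the highest, where 11.1% would if the order within each group were arbitrary. The replicate numbers differ, and the labels name no batch for these arrays.

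The starts of AXL and GAS6 are shown because these genes lay apart from the controls on both of their probe sets and in opposite directions. Each run holds the 250 bases before a start of the gene in RefSeq's GRCh38.p14 table, for AXL the first of 2 starts listed; the second held 0 of either motif. Capitals mark the GC box GGGCGG, read on both strands, which the factors SP1 and SP3 can bind. Searched as well was TGANTCA, a loose form of the AP-1 motif in which N is any base. AXL, at chr19:41218973-41219222 on the plus strand, held 2 GC boxes and 0 AP-1 motifs.
AXL: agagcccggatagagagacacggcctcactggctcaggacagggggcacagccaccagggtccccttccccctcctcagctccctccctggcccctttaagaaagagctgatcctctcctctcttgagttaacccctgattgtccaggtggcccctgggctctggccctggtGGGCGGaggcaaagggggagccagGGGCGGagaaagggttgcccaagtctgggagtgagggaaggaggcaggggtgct
GAS6, at chr13:113864077-113864326 on the minus strand, held 3 GC boxes and 0 AP-1 motifs.
GAS6: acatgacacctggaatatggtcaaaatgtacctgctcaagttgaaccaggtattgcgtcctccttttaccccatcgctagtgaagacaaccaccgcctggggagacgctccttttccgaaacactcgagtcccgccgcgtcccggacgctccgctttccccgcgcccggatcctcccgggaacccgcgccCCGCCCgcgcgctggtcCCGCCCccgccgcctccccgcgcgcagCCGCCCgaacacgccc
Over all 35116 windows of this length, 42.6% held the GC box and 6.57% this loose form of the AP-1 motif, so a GC box is common. The other members held it too: TYRO3 3 times and MERTK 4 times before their first listed starts, and PROS1 2 times. TYRO3 also held 1 match to the loose AP-1 form there, TGAATCA with A in place of N, the only match found in the family. These matches describe letters and no binding.

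Genes that act around the receptors were read from lists of 37 genes, of which 34 had a probe set of their own, each gene by its brightest probe set. They were the carboxylation enzymes that mature GAS6 and PROS1, phospholipid transporters that expose or hide phosphatidylserine, shedding proteases, other MERTK ligands, signalling partners, and reported regulators of AXL transcription. With all 9 arrays limma called 0 of the 34 with Qmimic (0% of all probe sets were), 0 with Dmimic (0.00549%) and 1, lower, over both mimics (0.0806%). Without AllStar replicate 3 it called 1, lower, in each of the 3 (0.54%, 0.864% and 0.721% of all). The gene was FOSL1 each time, a subunit of AP-1 reported to regulate AXL. The lists were chosen with earlier results of these data known, so the calls of FOSL1 are no independent support. Its level fell 2.06-fold over both mimics (from a log2 level of 11.01 with AllStar to 9.96 with Qmimic and 9.98 with Dmimic, adjusted p = 0.0401). For FOSL1 the values without AllStar replicate 3 were -1.14 with Qmimic and -1.12 with Dmimic (adjusted p = 0.0109 and 0.0127). Of the other 7 regulators on its list, SP1, SP3, MZF1, JUN, YAP1, TEAD1 and HIF1A, 0 were called by their brightest probe set in either fit. A dimmer probe set of SP3, 238035_at, was called lower with Qmimic without AllStar replicate 3 (-0.68, adjusted p = 0.0353) and not with all 9 arrays (-0.53, adjusted p = 0.22), while the brightest gave -0.19 and 0.025 (adjusted p = 0.299 and 0.938). These probe sets of SP3 thus differed in size, and with all 9 arrays also in sign. JUN, a partner of FOSL1 in AP-1, gave 0.012 for Qmimic (adjusted p = 0.945) and 0.091 for Dmimic (adjusted p = 0.618), and -0.052 and 0.028 without AllStar replicate 3 (adjusted p = 0.721 and 0.89).

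The proteases that shed the ectodomains of AXL and MERTK, ADAM10 and ADAM17, had positive differences. The value for ADAM17 was 0.34 under Qmimic (limma adjusted p = 0.184) and 0.21 under Dmimic (adjusted p = 0.351). Its mimic arrays all lay above the controls, as on 8.33% of all probe sets. Without AllStar replicate 3 the Qmimic value was 0.35 (1.28-fold, adjusted p = 0.049), under the fold threshold, and the Dmimic value 0.22 (adjusted p = 0.166). For ADAM10 it was 0.41 under Qmimic (adjusted p = 0.216) and 0.22 under Dmimic (adjusted p = 0.461), and without AllStar replicate 3 it was 0.27 and 0.082 (adjusted p = 0.0999 and 0.662). GGCX, the carboxylase that GAS6 and PROS1 need, differed by -0.094 with Qmimic and -0.020 with Dmimic (adjusted p = 0.664 and 0.944). VKORC1, which recycles vitamin K, differed by -0.14 and -0.058 (adjusted p = 0.454 and 0.787). On the 8 arrays without AllStar replicate 3 both were further below the controls, with all mimic arrays lower than both controls, as on 10.1% of all probe sets. GGCX then gave -0.24 and -0.17 (adjusted p = 0.107 and 0.247) and VKORC1 -0.22 and -0.14 (adjusted p = 0.161 and 0.383), and neither was called.

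Among the signalling partners of the receptors limma called 0 of 14 measured genes in each comparison with AllStar, in both fits, beside the same shares of all probe sets. In the fit without AllStar replicate 3, TNS2 with Dmimic gave -0.33 (limma adjusted p = 0.0418). SOCS1 over both mimics gave -0.35 there (adjusted p = 0.0446), and both values were under the fold threshold. The median difference of the 14 genes over both mimics was 0.097 with all arrays and -0.095 without AllStar replicate 3, so its sign turned with that array. Over all 34 genes it was 0.12 and -0.015.

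**Figure D4:**
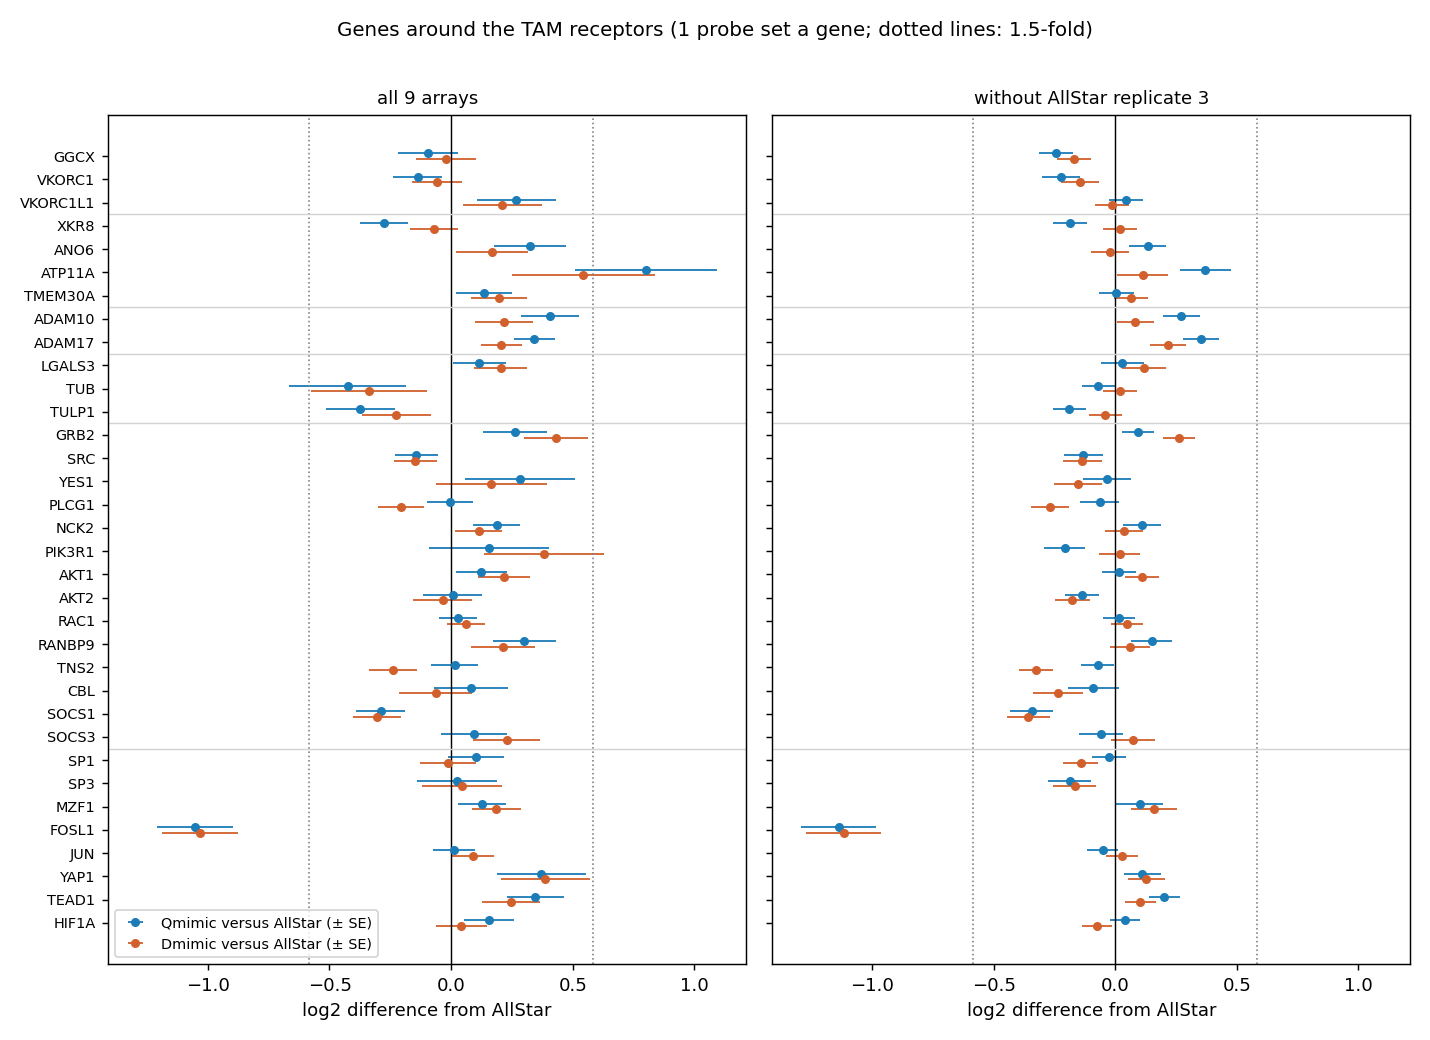
Log2 difference from AllStar ± SE (horizontal axis) for the 34 measured genes around the TAM receptors, with Qmimic and Dmimic side by side, for all 9 arrays (left) and without AllStar replicate 3 (right); grey lines separate the lists and dotted lines mark 1.5-fold. FOSL1 lies beyond 1.5-fold with both mimics in both panels, at -1.05 and -1.03 on the left.

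The genes whose profile over the 9 arrays came nearest to that of AXL differed between its probe sets. The measure was the root mean square difference of the log2 values, each centred on its own mean, over 19268 genes other than AXL, each by its brightest probe set and without provisional LOC names. Nearest to 202686_s_at was SPC24, a kinetochore protein, at 0.099, followed by the sorting nexin SNX15 (0.11), the lipid kinase PIP5K1A (0.13), the nuclear envelope protein NRM (0.13) and CCNJL (0.14), where the median gene was at 0.39. Nearest to 202685_s_at was the nucleoside transporter SLC29A1 (0.089), followed by FANCI of DNA crosslink repair (0.090), the replication factor GINS3 (0.093), the thymidine kinase TK1 (0.094) and the TFIID subunit TAF5 (0.098), where the median gene was at 0.50. On the 8 arrays without AllStar replicate 3 the 5 genes of 202685_s_at ranked 5 to 13, while those of 202686_s_at ranked 29 to 326. The choice of nearest genes for 202686_s_at thus rested more on that array. All 9 arrays share the same controls and normalisation, so the measure describes these arrays and carries no test.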

How the data were processed

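Total RNA from 9 wells was labelled and hybridised to 1 HG-U133 Plus 2.0 array each. The deposited table holds 1 log2 signal for each probe set and array; RMA, a method that corrects background, equalises the arrays' distributions and sums probes into probe sets, was run by the authors, per the labels and series text; versions are not given in the sources used here. RMA is meant to place all arrays on 1 scale, but the deposited distributions were not equal. The interquartile range was 2.995 for AllStar replicate 3 and 3.41 to 3.53 for the other arrays. An array of poor quality can shift whole ranges of levels. Precision is set by the number of arrays, 3 per group. Control probe sets (62) were omitted, and 54613 of 54675 were tested without a filter. Names came from the platform annotation: 41091 probe sets had 1 gene, 1801 several and 11721 none.

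One limma 3.58.1 model (R 4.3.3; 3 groups, 9 arrays, eBayes without trend) compared each mimic, and both together, with AllStar, and the mimics with each other. It was refitted without AllStar replicate 3. The script was tested on simulated data. Named were all member probe sets; every called gene of the surrounding lists with FOSL1, JUN, ADAM10, ADAM17, GGCX and VKORC1; and the 5 nearest profiles of each AXL probe set. The members and lists were chosen with earlier results of these data known. Alternatives were other normalisations, a filter, other fold thresholds, an intensity trend, fewer groups, a replicate block and leaving out each array. Deviations from the group means correlated above 0.1 in 3 of the 9 pairs of arrays with a shared replicate number, and ranged from -0.275 to 0.219. With 3 arrays per group this cannot tell whether wells of a number were handled together.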

Additional observations from a re-analysis of the deposited data

How the results depend on the processing

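AXL was lower than AllStar under every alternative run, on both probe sets and with both mimics. Only the other normalisations and leaving out an array of a compared group could move its differences. Its calls turned only over both mimics: 202686_s_at passed with cyclic loess (-0.85, adjusted p = 0.0485) and an intensity trend (-0.72, adjusted p = 0.0437), and 202685_s_at with repeated quantile normalisation (-0.9998, adjusted p = 0.0488), cyclic loess (-1.02, adjusted p = 0.0368) and without AllStar replicate 3. The count of member probe sets called over both mimics was 0 with the deposited values (0.0806% of all probe sets), 1 with repeated quantile normalisation (0.447%), 2 with cyclic loess (0.685%), 1 with the trend (0.222%), and 0 to 1 when each array was left out (0% to 0.721%). With arrays left out in turn, the AXL difference over both mimics ranged from -0.81 to -0.56 on 202686_s_at and from -0.95 to -0.74 on 202685_s_at. The replicate block called 0 members and changed no call: AXL differed over both mimics by -0.72 (adjusted p = 0.117) and -0.86 (adjusted p = 0.13).

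Of 706 values of member differences under alternatives, 39 changed sign, all of them small differences of TYRO3, MERTK or between the mimics. Only another normalisation, or leaving out an array of a compared group, could move a difference, so the other values could not change sign. TYRO3 211431_s_at turned with Qmimic under repeated quantile normalisation (0.015) and median centring (0.051), and over both mimics under median centring (0.024). MERTK 206028_s_at turned under median centring with Qmimic (0.055), with Dmimic (0.021) and over both (0.038), and between the mimics under repeated quantile normalisation (-0.011). MERTK 211913_s_at turned with Qmimic under repeated quantile normalisation (-0.054) and cyclic loess (-0.093), and under median centring with Dmimic (0.0028) and over both (0.044). With arrays left out in turn, with Qmimic TYRO3 211431_s_at ranged from -0.14 to 0.048, MERTK 206028_s_at from -0.23 to 0.13 and 211913_s_at from -0.23 to 0.18. With Dmimic they ranged from -0.18 to 0.0088, -0.25 to 0.11 and -0.30 to 0.11, and over both from -0.16 to 0.029, -0.24 to 0.12 and -0.26 to 0.14. Between the mimics AXL 202686_s_at ranged from -0.065 to 0.12, AXL 202685_s_at from -0.11 to 0.32, TYRO3 211432_s_at from -0.020 to 0.076 and MERTK 211912_at from -0.072 to 0.068. The cause of these changes was not tested. Fitting only the groups compared gives nothing further over both mimics, which use all arrays, and MERTK 211912_at falls outside the filter on low levels.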
